A study of Spodoptera frugiperda with 3 samples.

Results

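The genes described here are 3 of the 20644 genes listed for Verson's glands of the fall armyworm, Spodoptera frugiperda: LOC118271913 (carboxypeptidase B-like), LOC118262825 (putative serine protease K12H4.7) and LOC118270348 (V-type proton ATPase subunit B). They were taken by gene name, and all 3 are in every library. Verson's glands are secretory glands of the caterpillar skin. The RNA-seq libraries are from glands of the last larval instar (L6), the prepupa and the pupa, with 1 library per stage. All glands came from the FAW-SID1 strain, a transgenic line that carries green fluorescent protein under the hr5-IE1 promoter and the Caenorhabditis elegans double-stranded RNA transporter SID1 under the IE1 promoter. The libraries hold no gland of a wild-type or other strain, no treatment is stated for them, and the sources used here give neither the age in days nor the number of insects per library.

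Molting fluid fills the space between the old and the new cuticle, and its chitinases and peptidases digest the inner layers of the old cuticle so that the products can be taken up again. Carboxypeptidases remove single amino acids from the carboxyl end of peptides, and those of the B type prefer lysine and arginine. In the silkworm Bombyx mori a carboxypeptidase of the A type is known from molting fluid. K12H4.7 is named after a Caenorhabditis elegans gene of the S28 peptidase family, whose mammalian members, such as lysosomal Pro-X carboxypeptidase, cut after proline. The V-ATPase is the proton pump of lysosomes, secretory vesicles and some insect plasma membranes. Its soluble V1 sector splits ATP on a ring of alternating A and B subunits, and its membrane sector V0 carries the protons.

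Levels are given as TPM, exon reads per exon length scaled to the same sum in every library. The deposited TPM includes ribosomal RNA (rRNA), which took 87.8%, 0.307% and 37.1% of the exon reads in L6, prepupa and pupa. TPM was therefore rescaled over the 20506 genes that are neither rRNA nor mitochondrial (the mitochondrial genes other than rRNA had 0 exon reads), which multiplied the deposited values by 3.64, 1.003 and 1.22. The libraries held 21366500, 15208331 and 18620715 exon reads, of which 2610753, 15161624 and 11716156 were on these genes. Low genes are thus least precise in L6. With 1 library per stage there is no replicate spread, no test was made and no p-value is given. Intervals are 95% intervals that cover counting error only, and ratios between stages also depend on how the libraries are scaled. Log2 ratios are of rescaled TPM + 1, which understates the change of low genes. A ratio was called when it reached 4-fold on that scale. In whole glands, fewer cells of a type and less RNA per cell cannot be told apart.

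The libraries also differed in transcripts of genes known as markers of other tissues. The 5 troponin genes, which encode thin-filament proteins of muscle, summed to 6205, 41.7 and 187 rescaled TPM in L6, prepupa and pupa, and none was at 0 in any library. The 5 genes named for fat body proteins, as apolipophorins, vitellogenin-like or microvitellogenin-like, summed to 3184, 114 and 10727 rescaled TPM. Apolipophorin-3 (LOC118274630) alone had 3028, 83.5 and 10387, or 95.1%, 73.2% and 96.8% of that sum. Only 2 of the 5, the apolipophorins, were highest in the pupa. The other 3 were highest in L6, at 9.14, 3.29 and 0.359 rescaled TPM there. Both sums were lowest in the prepupa, where the 3 genes described here were highest. The only midgut marker with a held name, aminopeptidase N-like (LOC118268234), had 1.47, 29.5 and 0.182 rescaled TPM and was highest in the prepupa, as the 3 genes were. Fibroin light chain-like (LOC118271397), a silk gland gene, was at 0, 0 and 12.1 rescaled TPM. No hemocyte marker carried a held name, and no list held a marker particular to Verson's glands against which the labels could be checked. Transcripts of these markers from other tissues and from the gland cells themselves cannot be told apart here. The study itself reported hemolymph protein genes among those highly expressed in the glands. Any part of other tissues in the ratios below was not tested.

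All 3 genes were highest in the prepupa on rescaled and on deposited TPM. Of all genes tested, 59.9% were higher in the prepupa than in L6 on rescaled TPM and 87.8% on deposited TPM. Those higher in the pupa than in the prepupa made up 39.4% and 35.2%. The share of all genes highest in the prepupa was not counted. The 3 genes differed in how far the prepupa stood out. The carboxypeptidase was nearly restricted to the prepupal library, subunit B was several-fold higher there than in L6, and K12H4.7 was at a like level in L6 and prepupa. Between prepupa and L6, 2 of the 3 genes were at least 4-fold higher in the prepupa, a call that 15.1% of the 12354 genes tested also received. Between pupa and prepupa, 2 of the 3 were at least 4-fold lower in the pupa, as were 23.5% of the 11833 genes tested. On deposited TPM all 3 passed in both comparisons, against 40.8% and 26.5% of genes. On the same scale of rescaled TPM + 1, a prepupal value at least 4-fold above L6 and at least 4-fold above the pupa was found for 1494 of 12971 genes, or 11.5%. The genes were picked with this pattern known, so these counts describe them and do not set them apart.

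**Figure D1:**
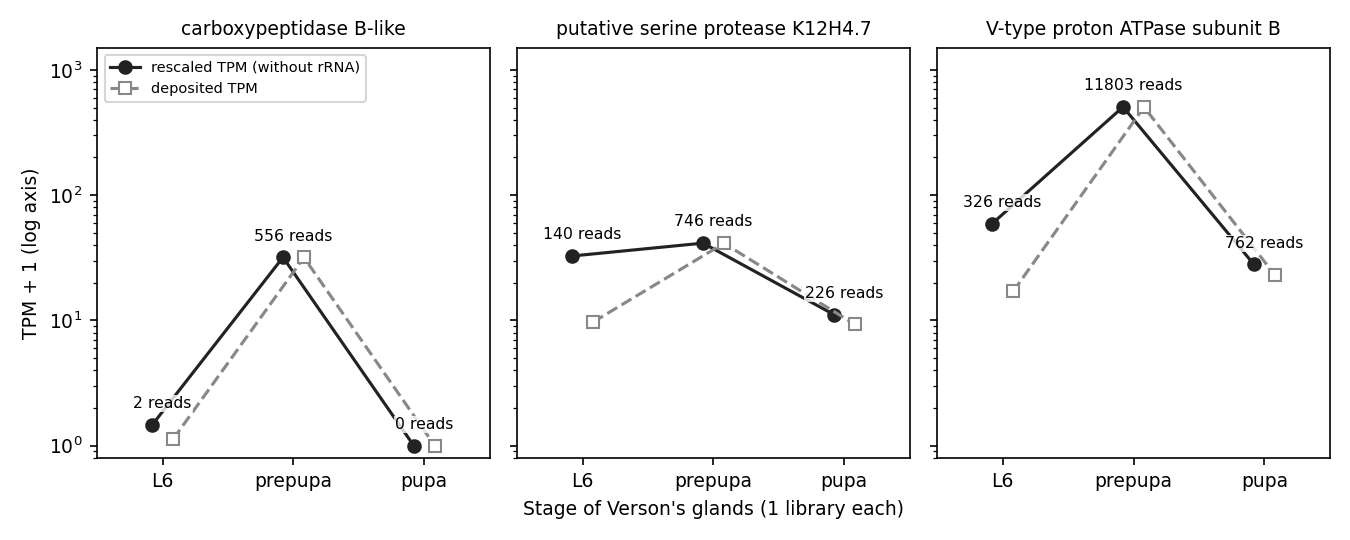
TPM + 1 on a log axis for the 3 genes in L6, prepupa and pupa glands, 1 library each. Filled circles are TPM rescaled without rRNA and mitochondrial genes, open squares are deposited TPM, and labels give exon reads. The prepupa is the highest point in every panel, and for K12H4.7 the rescaled L6 value of 31.7 lies close to the prepupal 40.4 while the deposited L6 value of 8.71 lies well below it.

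The carboxypeptidase B-like gene LOC118271913 lies on the minus strand of the sequence named NC_049725.1 in the files, from 9488450 to 9493868, with 9 exons and an exon length of 1710 bases. The sources used here do not name the genome build. The gene had 2, 556 and 0 exon reads in L6, prepupa and pupa, which gave 0.464, 30.9 and 0 rescaled TPM. Deposited TPM was 0.128, 30.8 and 0. The prepupal library therefore held nearly all of its reads, and there it ranked 2560 of the 20506 genes, above 87.5% of them. The ratio of prepupa to L6 was 66.5-fold, with a wide counting interval of 18.3 to 551 because only 2 reads stood in L6. Its log2 ratio was 4.44. In the pupa the count of 0 allows up to 0.138 rescaled TPM, taken as 3 reads, so the pupa was at least 224-fold lower than the prepupa, or at least 273-fold lower on deposited TPM. L6 and pupa were both at or under 3 reads and were not distinguishable at this depth.

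Reads of the carboxypeptidase in the prepupa were mostly spliced. Of the 556 exon reads, 396 crossed an exon-exon junction, or 71.2% (Wilson interval 67.3 to 74.8%), and only 2 reads lay in introns. Uniquely mapped reads made up 401 of the 556, or 72.1% (68.3 to 75.7%), and the other 155 also matched elsewhere in the genome. Among the unique reads 90.8% crossed a junction, against 20.6% of the shared reads, so the shared reads lay mostly within single exons. The sources used here do not say how shared reads were assigned, so this gene's level could be lower by up to that share. It could also be higher, by an amount these counts do not limit, if reads of this gene were assigned elsewhere. The unique reads alone kept the pattern, with 2, 401 and 0.

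LOC118271912, a gene without a held name on the opposite strand, spans the whole of the carboxypeptidase gene. It had 3, 18 and 18 exon reads in L6, prepupa and pupa, far fewer than the carboxypeptidase in the prepupa. The sources used here do not say whether the counting used strand, so reads of overlapping genes cannot be told apart by strand. The next gene on the same strand, LOC118271743, starts 836 bases away and had 1.03, 6.77 and 0.143 rescaled TPM. It was 6.58-fold higher in the prepupa than in L6 and 47.4-fold higher than in the pupa, but on the TPM + 1 scale neither it nor any other of the 8 nearest genes was at least 4-fold above both other stages.

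A second gene with the same name, carboxypeptidase B-like LOC118266420, was also highest in the prepupa. It had 0, 1373 and 71 exon reads, or 0, 83.0 and 3.56 rescaled TPM. All of its reads were uniquely mapped, so it was listed with no read shared with another place. The prepupa was at least 109-fold higher than L6, taking 3 reads in L6, and the pupa was 23.3-fold lower than the prepupa (18.4 to 30.0). The 2 genes thus differed in the pupa, where LOC118266420 kept 71 reads and LOC118271913 had none.

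The list of metallocarboxypeptidases, the zinc enzymes to which the B type belongs, held 5 named genes. Of the 4 with at least 1 rescaled TPM in prepupa or L6, 3 were at least 4-fold higher in the prepupa than in L6 (15.1% of all genes). In the pupa 3 were at least 4-fold lower than in the prepupa (23.5% of all genes). Besides both B-like genes this was cytosolic carboxypeptidase-like protein 5 (LOC118268203), with 4.33, 39.5 and 6.39 rescaled TPM. Its known relatives trim glutamate chains from tubulin inside the cell. Carboxypeptidase E-like (LOC118282329), whose mammalian namesake processes prohormones, had 1.88, 6.66 and 6.45 rescaled TPM, so prepupa and pupa were close on that scale. Putative carboxypeptidase suro-1 (LOC118274776) stayed under 1 rescaled TPM in every library.

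The putative serine protease K12H4.7, LOC118262825, lies on the minus strand of NC_049710.1 from 11077527 to 11080886, with 9 exons and an exon length of 1755 bases. It had 140, 746 and 226 exon reads in L6, prepupa and pupa, all uniquely mapped. Rescaled TPM was 31.7, 40.4 and 10.1, and the gene ranked 2006, 2088 and 3986 among the 20506 genes. L6 and prepupa were thus at a like level, and the pupa was the lowest. The prepupa was 1.27-fold above L6 (1.06 to 1.54), a log2 ratio of 0.34 against a median of 0.42 over all genes tested. The deposited TPM of 8.71, 40.3 and 8.28 makes the same ratio 4.62-fold, and scaling by edgeR's trimmed mean of M values (TMM) makes its log2 ratio 0.02. The difference between L6 and prepupa is therefore set by how the libraries are scaled.

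The pupa was 3.98-fold lower than the prepupa for K12H4.7 (3.43 to 4.64). Its log2 ratio of -1.89 did not reach the 4-fold call, against a median of -0.67 over all genes, while on deposited TPM it did with -2.15. The pupa was also 3.12-fold lower than L6 (2.51 to 3.87) on rescaled TPM, but 1.05-fold lower on deposited TPM. Junction reads made up 70.0%, 71.0% and 70.4% of its exon reads, which is within each other's intervals. Intron reads were few, 2, 25 and 4, or 1.41%, 3.24% and 1.74% of the gene's reads.

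K12H4.7 was the only gene with a held name in the list of S28 peptidases. Its nearest neighbour, probable citrate synthase 2 (LOC118262833), begins 260 bases away on the opposite strand and encodes a mitochondrial enzyme of the citric acid cycle. That gene had 111.9, 188.8 and 13.1 rescaled TPM, also highest in the prepupa and lowest in the pupa. Peptidoglycan-recognition protein LE-like (LOC118262842), named for a sensor of bacterial cell walls in Drosophila, had 5.24, 15.9 and 3.58. Of the 8 nearest genes 5 were highest in the prepupa, a share that was not counted over all genes. None was at least 4-fold above both other stages, as 11.5% of all genes were.

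Over the peptidase lists the pattern was mixed. The lists of metallocarboxypeptidases, S28 peptidases, serine carboxypeptidases, the trypsin family, cathepsins and aminopeptidases held 25 named genes. Peptidases of other families, such as neprilysin-2-like LOC118262896, were not in these lists. Of the 25 genes, 16 were highest in the prepupa on rescaled TPM, 5 in the pupa and 3 in L6, while 1 had no read. Some of these places rest on few reads, such as that of serine protease nudel-like (LOC118268368) in the pupa, on 0, 1 and 2 reads. The share of all genes that are highest in the prepupa was not counted. Of all genes tested, 59.9% were higher in the prepupa than in L6, and 39.4% were higher in the pupa than in the prepupa. Under TMM scaling 13 of the 16 were highest in the prepupa, while cathepsin L1-like and carboxypeptidase E-like were highest in the pupa and trypsin-3-like (LOC118263562), on 1, 5 and 0 reads, in L6. Between prepupa and L6, 8 of the 21 tested were at least 4-fold higher in the prepupa (15.1% of all genes) and 3 lower (9.67%). The median log2 ratio was 1.56 against 0.42 over all genes. On deposited TPM 17 of 20 were at least 4-fold higher (40.8% of all genes) and 2 lower (525 of 11286 genes). The median was then 3.13 against 1.70 over all genes. Between pupa and prepupa, 4 of 21 were at least 4-fold higher in the pupa (11.9% of all genes) and 10 lower (23.5%). The median was -1.89 against -0.67. Of the 25 names, 15 come from the study's own lists of genes that differed between Verson's glands and other tissues in these libraries, so the counts are not independent of the glands' profile.

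The trypsin family, endopeptidases that cut after basic residues or act in activation cascades, held 10 named genes, 6 of them highest in the prepupa. Serine protease 7-like (LOC118265362) was the most abundant, with 305, 627 and 44.8 rescaled TPM in L6, prepupa and pupa. Trypsin-1-like (LOC118271895) had 1.30, 308 and 0.193 rescaled TPM, on 4, 3958 and 3 reads, and so was nearly restricted to the prepupa, as the carboxypeptidase was. Serine protease persephone-like (LOC118269203), named for a Drosophila protease that activates Toll signaling, had 32.7, 130 and 35.7. The aminopeptidases, which remove residues from the amino end, were all 3 highest in the prepupa. Puromycin-sensitive aminopeptidase-like (LOC118272319) had 6.28, 76.3 and 2.52 rescaled TPM, aminopeptidase N-like (LOC118268234) 1.47, 29.5 and 0.182, and glutamyl aminopeptidase-like (LOC118264921) 1.65, 6.83 and 1.18.

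The cathepsins and the serine carboxypeptidases had no single pattern. Pro-cathepsin H-like (LOC118267144), of the lysosomal cysteine proteases, had 3336, 8.80 and 9.62 rescaled TPM in L6, prepupa and pupa. The cathepsin B-like genes LOC118264335 and LOC118264342 were highest in the pupa, with 103 and 124 rescaled TPM there, but none of their reads was uniquely mapped and they cannot be told apart. Cathepsin L1-like (LOC118276442) had 274, 780 and 483. The venom serine carboxypeptidase-like genes went opposite ways, LOC118273157 with 35.1, 4.32 and 45.1 rescaled TPM and LOC118274807 with 51.4, 83.6 and 9.17.

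**Figure D2:**
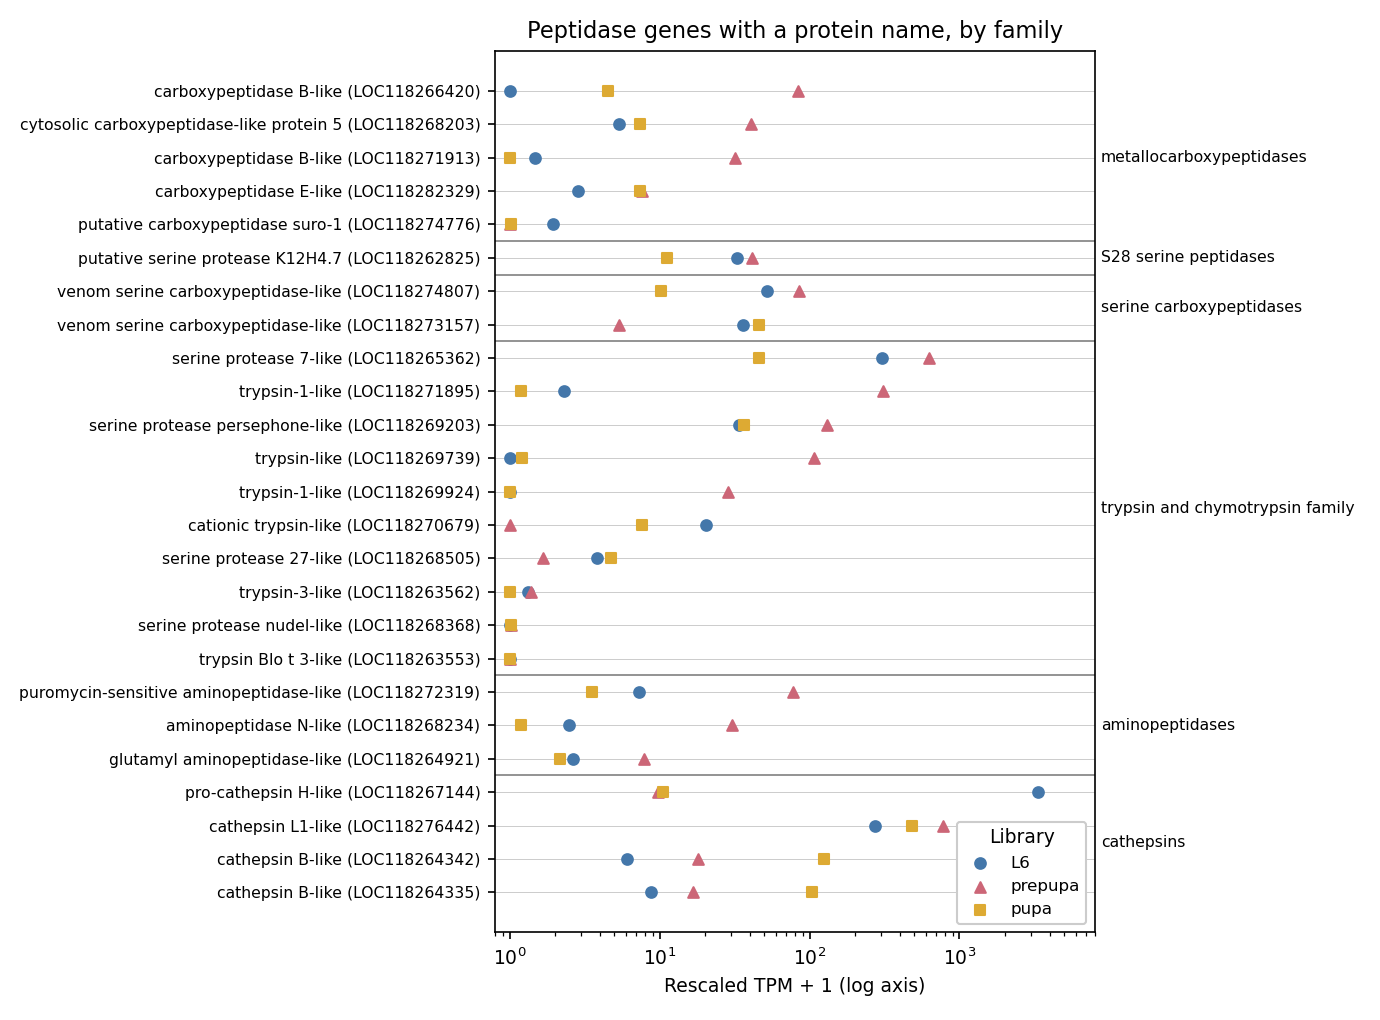
Rescaled TPM + 1 on a log axis for the 25 named genes of the peptidase lists, grouped by list, with 1 point per library (circle L6, triangle prepupa, square pupa). The triangle is the rightmost point for 16 genes, among them both carboxypeptidase B-like genes, K12H4.7 and all 3 aminopeptidases, while pro-cathepsin H-like is highest in L6. Under TMM scaling 13 of these 16 are highest in the prepupa.

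V-type proton ATPase subunit B, LOC118270348, was the most abundant of the 3 genes. It lies on the minus strand of NC_049723.1 from 4289471 to 4299076, with 11 exons and an exon length of 2221 bases. The B subunit binds nucleotide in the V1 ring without being the main catalytic site. The study also injected larvae of this strain with double-stranded RNA against a V-ATPase gene and reported reduced growth of the glands. It did not measure the knockdown of that gene across tissues. The subunit it aimed at is not named in the sources used here, so the primers of that experiment are shown, without the shared promoter tail, as the sequences that define the reagent. They were not placed on a gene.
VATPase_dsF: acggacccttctttggagtt
VATPase_dsR: acgaataacctgggctgttg

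Subunit B had 326, 11803 and 762 exon reads in L6, prepupa and pupa. Rescaled TPM was 58.3, 505 and 27.0, and deposited TPM 16.02, 503 and 22.1. It ranked 1285, 251 and 2263 of the 20506 genes, so the prepupa stood apart from both other stages. The prepupa was 8.66-fold higher than L6 (7.76 to 9.70), a log2 ratio of 3.09, and 31.4-fold higher on deposited TPM. The pupa was 18.7-fold lower than the prepupa (17.4 to 20.1), a log2 ratio of -4.17. Pupa and L6 were closer, and their order depended on the scale. The pupa was 2.16-fold lower than L6 on rescaled TPM (1.89 to 2.46) but 1.38-fold higher on deposited TPM.

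The named V-ATPase genes numbered 9, and every one of them was highest in the prepupa on rescaled and on deposited TPM, while under TMM scaling subunits F and G were higher in the pupa. The share of all genes highest in the prepupa was not counted. Of all genes tested, 59.9% were higher in the prepupa than in L6 on rescaled TPM and 87.8% on deposited TPM. Those higher in the pupa than in the prepupa made up 39.4% and 35.2%. Of the 9 names, 7 come from the study's lists of genes that differed between Verson's glands and other tissues. Those of subunits E and G come from its list of hemolymph protein homologs. The lists of differing genes were drawn from these same libraries, so the counts of V-ATPase genes are not independent of the glands' profile. V-ATPase genes without a held name are not counted. The rescaled TPM of the 9 genes summed to 2518, 6445 and 2041 in L6, prepupa and pupa. Between prepupa and L6, 3 of 9 were at least 4-fold higher in the prepupa, against 15.1% of all genes. The median log2 ratio was 1.53, with a range of 0.64 to 3.37, against 0.42 over all genes. Between pupa and prepupa, 5 of 9 were at least 4-fold lower in the pupa, against 23.5% of all genes. The median was -2.25 against -0.67 over all genes. Between pupa and L6 none of the 9 was called on rescaled TPM (11.4% of all genes were higher in the pupa and 11.3% lower) or on deposited TPM (24.6% and 3.59%), and the median was -0.52 on rescaled and 1.02 on deposited TPM.

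Subunits A, B and E moved most. The catalytic subunit A (LOC118267501), which hydrolyses ATP, had 40.6, 429 and 22.9 rescaled TPM in L6, prepupa and pupa. Its prepupal value was 10.6-fold above L6, and its pupal value 18.7-fold below the prepupa. Subunit E (LOC118278043), part of the outer stalks that hold the ring in place, had 232, 1101 and 77.5 rescaled TPM, and so was 4.74-fold higher in the prepupa than in L6 and 14.2-fold lower in the pupa than in the prepupa. Its stalk partner G (LOC118277432) differed less, with 723, 1149 and 636. Subunit F (LOC118268252) of the turning central shaft had 289, 450.5 and 327.

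Subunit H (LOC118271665), which regulates the assembled pump, had 96.4, 281 and 41.8 rescaled TPM, and was 6.71-fold lower in the pupa than in the prepupa. Of its reads, 58.2% were uniquely mapped. In V0, subunit d (LOC118273199), which links shaft and membrane ring, had 140, 375 and 106 rescaled TPM. The proteolipids form the proton-carrying ring. The 16 kDa proteolipid (LOC118263301) was the most abundant of the named V-ATPase genes, with 834, 1805 and 729 rescaled TPM. Only 40.6% of its reads were uniquely mapped. The 21 kDa proteolipid-like gene (LOC118280889) had 105, 349 and 72.7, and was 4.81-fold lower in the pupa than in the prepupa. Under TMM scaling all 9 stayed higher in the prepupa than in L6, but subunits F and G were higher in the pupa than in the prepupa, with log2 ratios of 0.48 and 0.09.

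**Figure D3:**
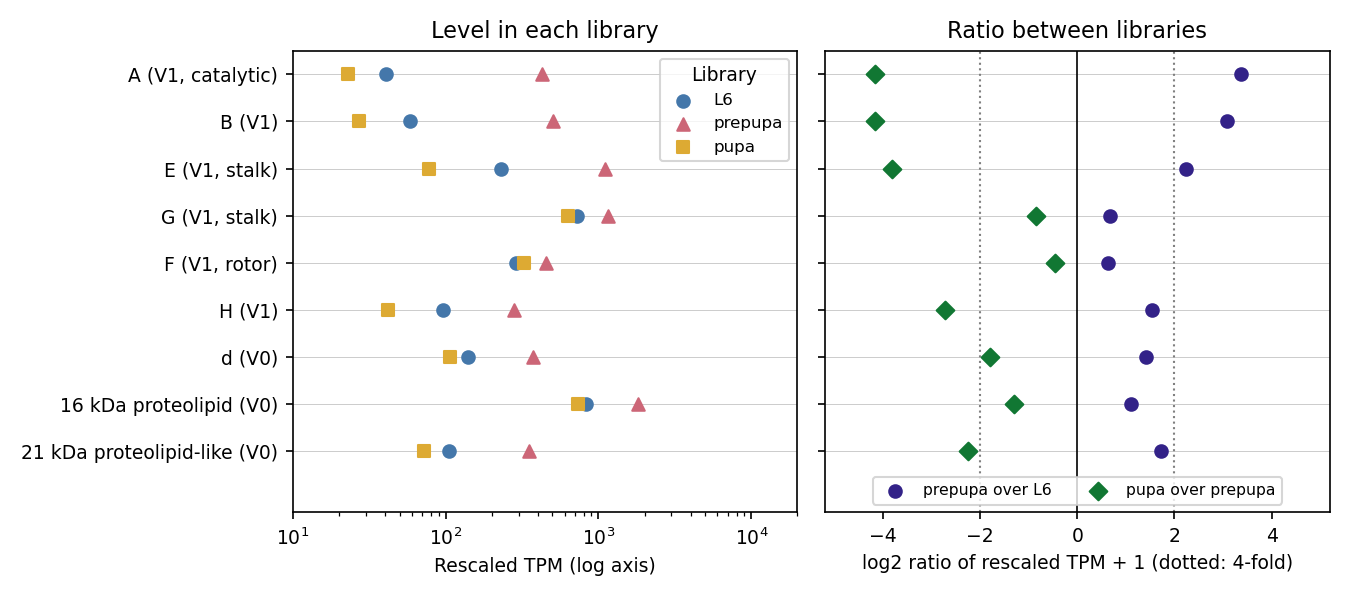
Left, rescaled TPM on a log axis of 9 V-ATPase genes in 1 library each of L6 (circle), prepupa (triangle) and pupa (square). Right, log2 ratios of rescaled TPM + 1, with dotted lines at 4-fold. Subunits A, B and E pass the line in both comparisons, while F and G lie nearest 0.

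Because TPM is per length, levels of different subunits can be set side by side, but for B and A the order depended on the reads used, since B shares reads and A does not. On all exon reads B was above A by 1.44-fold in L6 (1.22 to 1.70), by 1.18-fold in the prepupa (1.15 to 1.21) and by 1.18-fold in the pupa (1.06 to 1.30). On uniquely mapped exon reads per length the ratio of B to A was 1.02 (0.854 to 1.22), 0.859 (0.836 to 0.883) and 0.632 (0.559 to 0.714) in L6, prepupa and pupa. The ratio of junction reads, not corrected for length, was 2.43, 1.42 and 3.87. The 16 kDa proteolipid exceeded B by 14.3-fold in L6, by 3.58-fold in the prepupa and by 27.0-fold in the pupa. Of the sum of the 9 named V-ATPase genes, B made up 2.31%, 7.83% and 1.32%.

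The reads of subunits B and A also differed in kind between stages. Of the exon reads of B, 58.9% crossed an exon-exon junction in L6, against 71.2% in the prepupa and 27.95% in the pupa (Wilson interval of the pupa 24.9 to 31.2%). For subunit A the shares were 29.6%, 49.9% and 7.23% (5.59 to 9.29%). From prepupa to pupa the share of B fell by 43.2 percentage points and that of A fell by 42.7. Over the 4427 genes with at least 100 exon reads in both libraries and at least 2 exons, the median share was 26.2% in the pupa and 39.7% in the prepupa, and a fall of at least 20 points was seen for 18.5% of genes. A fall as large as that of B was seen for 83 genes (1.87%) and as large as that of A for 95 genes (2.15%). The other 7 V-ATPase genes changed by between -11.5 and 5.24 points, and K12H4.7 by -0.69.

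Junction reads therefore gave larger differences for A and B than the other exon reads did. On junction reads, scaled to all such reads of the library, B was 30.4-fold lower in the pupa than in the prepupa (26.5 to 35.0), with 213 and 8404 such reads. On the other exon reads, scaled likewise, it was 4.80-fold lower (4.38 to 5.26), with 549 and 3399 reads. For A the pupa was 82.6-fold lower on junction reads (63.3 to 109.7) and 6.49-fold lower on the others (6.01 to 7.03). K12H4.7 was 2.57-fold lower on junction reads and 2.499-fold lower on the others, within each other's intervals. Intron reads of B were few, 2, 16 and 12 in L6, prepupa and pupa, or 0.61%, 0.14% and 1.55% of the gene's reads. For A the intron shares were 2.91%, 0.85% and 3.18%. What the pupal exon reads that cross no junction stem from was not tested.

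**Figure D4:**
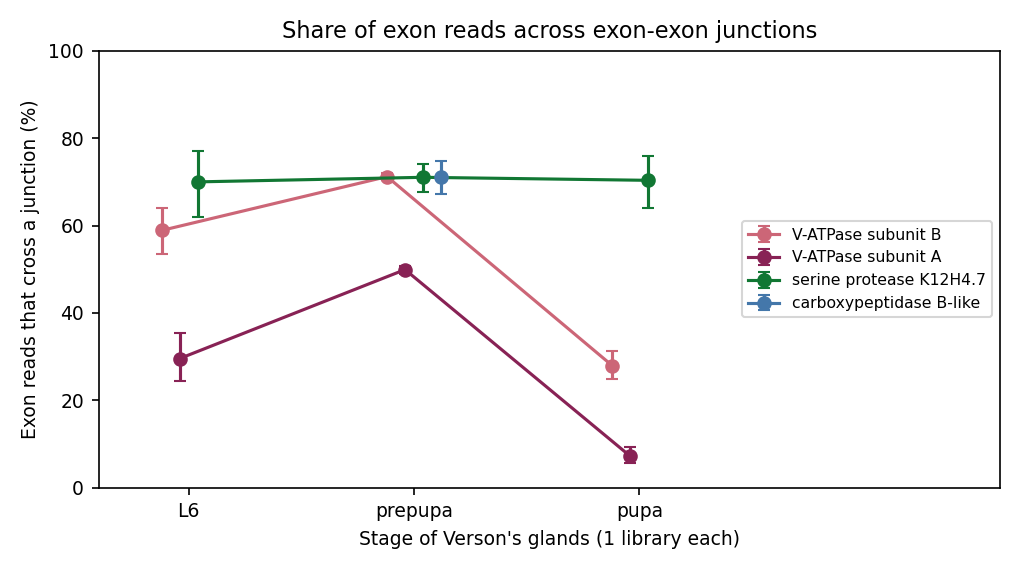
Percent of exon reads that cross an exon-exon junction, with 95% Wilson intervals, in 1 library per stage, shown where a gene has at least 100 exon reads. K12H4.7 lies at 70.0 to 71.0% in all stages, while subunit B drops to 27.95% and subunit A to 7.23% in the pupa.

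Shared reads took part in this shift for B. Uniquely mapped reads were 71.2%, 73.1% and 53.7% of the exon reads of B in L6, prepupa and pupa. Among unique reads 43.5% crossed a junction in the pupa (38.8 to 48.4%) and 77.8% in the prepupa (76.9 to 78.6%), so the share was lower in the pupa without shared reads too. Among the 353 shared reads of the pupa 9.92% crossed a junction (7.22 to 13.5%), against 53.3% of 3175 in the prepupa (51.6 to 55.1%). Subunit A had no shared reads. Neighbouring genes of B also shared reads, with 47.4% unique in LOC118270381, 41.7% in LOC118270345 and 45.7% in LOC118270268. LOC118270345, which starts 1017 bases away and carries no held name, had 17.0, 90.4 and 0.939 rescaled TPM. It was the only one of the 8 nearest genes at least 4-fold above both other stages in the prepupa on the TPM + 1 scale, while LOC118270268, with 26.4, 106 and 21.9 rescaled TPM, reached 4.02-fold and 4.84-fold only without the added 1.

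The named genes most like each of the 3 over the 3 libraries were ranked by the summed difference in log2(rescaled TPM + 1) over 1924 other named genes. For the carboxypeptidase these were extensin-like LOC118282269 (0.20), mucin-5AC-like LOC118268441 (0.56), Skeletor LOC118270780 (0.57), trypsin-1-like LOC118269924 (0.70) and neprilysin-2-like LOC118262896 (0.80), the last a metallopeptidase family. Trypsin-1-like LOC118269924 had no read in L6 or pupa and 27.7 rescaled TPM in the prepupa. For K12H4.7 they were angio-associated migratory cell protein-like LOC118273124 (0.22), LITAF domain-containing protein-like LOC118262587 (0.23), transmembrane 9 superfamily member 4-like LOC118273184 (0.43), prickle planar cell polarity protein 3-like LOC118270612 (0.56) and N-sulphoglucosamine sulphohydrolase-like LOC118264502 (0.62). None of these 5 is named as a peptidase.

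For subunit B the nearest was adiponectin receptor protein-like LOC118270960 (0.65), with 57.0, 352 and 25.1 rescaled TPM, and the next was V-ATPase subunit A (0.97). After them came an aquaporin AQPAe.a-like gene LOC118263055 (1.13), a water channel with 90.3, 707 and 26.6 rescaled TPM, microtubule-associated protein tau-like LOC118269544 (1.18) and CD63 antigen-like LOC118266618 (1.25). No other V-ATPase gene was among the 5. With 3 libraries, likeness rests on 3 values per gene and many genes share such a profile.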

How the data were processed

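Total RNA of dissected glands was sequenced at 1 library per stage, and groups follow the sample titles. The authors mapped reads to the fall armyworm genome in CLC Genomics Workbench (mismatch cost 2, insertion and deletion cost 3, length and similarity fractions 0.8) and deposited 1 gene table per library. The deposited counts are reads on exons, exon-exon junctions and introns, in total and uniquely mapped. The deposited TPM is exon reads per exon length scaled to the same sum with rRNA included, which was checked against the counts. The deposited RPKM was not used in ratios. The sources used here name no build and do not state how shared reads were assigned or whether strand was used.

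TPM was rescaled over 20506 genes, with a pseudocount of 1 TPM. A gene was tested at 1 rescaled TPM or more in at least 1 of both libraries and called at 4-fold. Ratio intervals are exact conditional binomial intervals at 95%, shares have Wilson intervals, and a count of 0 was set at 3 reads. Alternatives were deposited TPM, a pseudocount of 0.1, no filter, a fold of 2 or 10, unique reads, and scaling by edgeR 4.0.16 (TMM) or DESeq2 1.42.0 (size factors). The junction-read alternative was chosen after seeing the data. The ratio code was tested on simulated data. Python 3.11.15, pandas 2.3.3 and scipy 1.17.1 were used.

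Protein names are held for 2325 of the 20644 genes, from the study's supplementary gene lists. Of the 596 hemolymph accessions, 414 were matched with RefSeq's genes (assembly AGI-APGP_CSIRO_Sfru_2.0), without use of its coordinates. Lists were matched on these names. Named genes are the 3 members, all V-ATPase genes, genes with a member's name, 4 neighbours on each side, the 5 most alike, and the 3 highest of each peptidase list. Others are named only as exceptions or markers, after their values were seen. The members and lists were chosen with earlier results of these data known.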

Additional observations from a re-analysis of the deposited data

How the results depend on the processing

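The direction of every ratio of the 3 genes between prepupa and L6 and between pupa and prepupa held under all alternatives, but sizes moved. For K12H4.7 prepupa and L6 were nearly equal under some of them, with a log2 ratio of 0.02 with TMM and with DESeq2. Its junction reads gave 1.03-fold (0.83 to 1.29). Its other exon reads, which were not among the alternatives, gave 0.81-fold (0.58 to 1.16), the opposite direction. The scaling also moved the median of all genes. Relative to rescaled TPM that median shifted between prepupa and L6 by 1.27 (deposited TPM), -0.29 (TMM) and -0.30 (DESeq2), and between pupa and prepupa by -0.22, 0.90 and 0.80. For the carboxypeptidase the log2 ratio of prepupa to L6 was 5.78 with a pseudocount of 0.1 (4.44 with 1). That of pupa to prepupa (-4.99) was -8.28 with that pseudocount, -4.53 with TMM, -4.58 with DESeq2 and -5.93 on junction reads. For K12H4.7 prepupa to L6 was 2.09 on deposited TPM (0.34), and pupa to prepupa (-1.89) was -0.996 with TMM, -1.10 with DESeq2 and -1.33 on junction reads. For subunit B prepupa to L6 (3.09) was 4.89 on deposited TPM, 2.77 with TMM and 2.76 with DESeq2, and pupa to prepupa (-4.17) was -4.45 on deposited TPM, -4.51 on unique reads, -3.24 with TMM, -3.35 with DESeq2 and -4.89 on junction reads. V-ATPase genes past the fold between prepupa and L6 (3) numbered 9 on deposited TPM, 7 at a fold of 2 and 1 at a fold of 10, all higher in the prepupa. Over all genes, the calls in that direction were 4608 of 11286, 4367 of 12354 and 661 of 12354. Between pupa and prepupa (5) the V-ATPase genes numbered 3 at a fold of 10 and 3 with TMM, all lower in the pupa. Over all genes, the calls in that direction were 1056 of 11833 and 1701 of 11826. In both directions together, all genes past the fold between prepupa and L6 (3066) numbered 5133 on deposited TPM and 4880 with a pseudocount of 0.1. They numbered 6955 at a fold of 2 and 1296 at a fold of 10, and between pupa and prepupa (4186) 8066 and 1620 at those folds. The calls between prepupa and L6 split into 1871 higher and 1195 lower, against 4608 and 525 on deposited TPM. Those between pupa and prepupa split into 1409 higher and 2777 lower, against 2338 and 1701 with TMM. In 38 of 66 alternatives the value stayed within counting error or, for counts, within 1.5 times. With 1 library per stage none can be left out. No paired analysis was possible because each stage has 1 library and the labels carry no replicate numbers.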
